A study of Homo sapiens with 8 samples.

Results

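The genes described here encode 10 amino acid transporter subunits, of which some are known to carry the drug melphalan. The others are a partner subunit or further carriers of neutral or cationic amino acids, not all of the same transport systems. They were picked by gene symbol, with earlier results of these data known, and the brightest transcript cluster on average stands for each gene. That choice of cluster uses the measured signals, and it matters for SLC1A5, which has 2 clusters. All 10 were measured, out of 18417 genes with an expression value. Expression was profiled on 8 one-colour Affymetrix arrays, 4 of U266/s and 4 of U266/LR7. U266/s is a human multiple myeloma cell line and U266/LR7 is its melphalan-resistant derivative, so a difference between the lines is a difference between 1 line and 1 other. Within each line, 1 array was made from cells given a negative control oligonucleotide, 1 from cells given melphalan at 100 µM, 1 from cells transfected with inhibitors of miR-221 and miR-222 at 100 nM, and 1 from cells given melphalan and the inhibitors (the combined treatment). Cells of every group were collected 12 h after treatment, with no replicate of any condition. The transfection label of the melphalan-alone arrays reads none, whereas the culture protocol reads as if all cells without inhibitors had received the control oligonucleotide. If the label is right, the melphalan and inhibitor contrasts also hold that transfection difference.

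Melphalan is a nitrogen mustard built on phenylalanine, and it enters cells largely through carriers of large neutral amino acids. The system L carriers SLC7A5 (LAT1) and SLC7A8 (LAT2) are light chains that reach the plasma membrane bound to the heavy chain SLC3A2 (4F2hc, CD98), whereas SLC43A1 (LAT3) carries neutral amino acids without a heavy chain. SLC7A6 (y+LAT2) and SLC7A7 (y+LAT1) pair with the same heavy chain and exchange cationic for neutral amino acids. SLC38A1, SLC38A2 and SLC38A5 take up glutamine and other small neutral amino acids together with sodium, and SLC1A5 (ASCT2) exchanges glutamine and other neutral amino acids. Plasma cells and myeloma cells secrete immunoglobulin, and their demand for amino acids is high.

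The inhibitors were directed at a pair of microRNAs that share a seed, the stretch at bases 2 to 8 that pairs with target transcripts. Their mature sequences from RefSeq (GRCh38.p14) are shown 5′ to 3′ because they define that treatment, with the seed in capitals. The labels name no arm, and the 3p arm of each is given. Both lie on the minus strand of chromosome X, at chrX:45746180-45746202 for miR-221-3p and chrX:45747036-45747056 for miR-222-3p.
hsa-miR-221-3p: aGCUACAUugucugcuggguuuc
hsa-miR-222-3p: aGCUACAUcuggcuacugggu

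Values are log2 signals, normalised by the authors. Every error is a standard error (SE) from a limma model that shares its spread over all 8 arrays, and a gene was called at a Benjamini-Hochberg adjusted p under 0.05 over all genes. No condition has a second array, so that spread is not one between replicates. It is what the model leaves unexplained, which holds the inhibitor interactions left out of it as well as noise between arrays. The labels do not tell whether the arrays stem from separate cultures, and that noise may be only technical. Signals of different genes come from different probes, so the members were not ranked by signal. Genes were only placed against the median or lower quartile of all genes, and the highest marker named, as a rough guide. The arrays carried plasma cell transcripts: 8 of 9 measured plasma cell markers in U266/LR7 and 7 of 9 in U266/s lay above the median gene (7.38), with the immunoglobulin joining chain JCHAIN highest at 13.20 and 13.40. None of 4 B cell and 5 myeloid markers lay above it on average over the arrays of either line. In such bulk RNA, fewer cells of a type and less RNA per cell cannot be told apart. Of 7 T and NK cell markers, 2 did in U266/LR7 and 0 in U266/s, and of 6 stromal and epithelial markers 2 did in each line. The spread of signals over genes was narrower on the U266/s arrays with melphalan, with interquartile ranges of 2.75 and 2.80 against 3.08 to 3.31 on the other arrays.

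The resistant line differed from its parent in most of the transporters, and the largest differences were lower levels in the resistant line. Without melphalan, SLC7A5, SLC38A2, SLC38A5 and SLC1A5 were lower in U266/LR7 by more than 1 log2 unit, and SLC7A8, the other system L light chain, was higher by 1.83 ± 0.17. For SLC1A5 that size holds for the brighter of its 2 clusters, and the second gave -0.77. In all, 2 of 10 members were higher and 6 lower, against 34.7% of all genes called (16.9% higher and 17.8% lower). Of the 10, 9 lie above the median signal. Among the 9208 genes there, 26.2% were higher and 24.1% lower, against 2 and 5 of those 9 members. The median difference of the members was -0.47, against -0.04 over all genes. This contrast asks how a melphalan-resistant line differs from its parent before the drug is given.

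SLC7A5, the light chain best known for carrying melphalan, had signals of 9.65 with the control oligonucleotide and 10.001 with the inhibitors in U266/LR7, whereas U266/s read 12.05 and 12.02. The lines were thus well apart, and U266/LR7 was lower by 2.21 ± 0.14 log2 units, or 4.64-fold (adjusted p = 2.90e-07). With melphalan the signals were 10.41 and 10.76 in U266/LR7 and 11.66 on both U266/s arrays. The gap was then 1.08 ± 0.14 log2 units, or 2.11-fold (adjusted p = 6.64e-05). SLC7A8 ran the other way. Its signals without melphalan were 8.76 and 9.55 in U266/LR7 and 6.97 and 7.68 in U266/s, a 3.55-fold difference (adjusted p = 8.25e-06). With melphalan they were 9.34 and 9.98 against 7.61 and 8.89, and the difference was 1.41 ± 0.17 (adjusted p = 4.92e-05). The lines did not overlap in either state, although the highest U266/s array, that of the combined treatment, exceeded the U266/LR7 control array.

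SLC3A2, the shared heavy chain, did not follow either light chain. Without melphalan its signals of 10.95 and 11.47 in U266/LR7 lay on both sides of the 11.20 and 11.15 in U266/s, and the difference was 0.04 ± 0.14 (adjusted p = 0.873). With melphalan the lines separated, at 11.78 and 11.91 against 11.14 and 11.41, and U266/LR7 was higher by 0.57 ± 0.14 (adjusted p = 0.00573). That call was lost without the U266/LR7 melphalan array (0.51, adjusted p = 0.0661) and under cyclic loess scaling (0.25, adjusted p = 0.144). SLC43A1, the system L carrier that needs no heavy chain, changed sides. Without melphalan it had 8.42 and 8.48 in U266/LR7 and 8.998 and 8.89 in U266/s, lower by 0.49 ± 0.16 (adjusted p = 0.0309). With melphalan it had 9.09 and 8.62 against 8.44 and 8.31, higher by 0.48 ± 0.16 (adjusted p = 0.0264). The groups did not overlap in either state, but both calls were small and fragile. The one without melphalan was lost without the U266/LR7 control array (-0.34), the U266/s control array (-0.53) or the U266/s inhibitor array (-0.46), with adjusted p between 0.113 and 0.181. The one with melphalan was lost without the U266/LR7 melphalan array (0.27) or either U266/s melphalan array (0.46 and 0.50), with adjusted p between 0.0851 and 0.358, and under quantile (0.15) or cyclic loess (0.19) scaling.

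The y+L exchangers differed in opposite directions without melphalan. SLC7A6 had 10.79 and 10.83 in U266/LR7 and 10.50 and 10.14 in U266/s without melphalan, and 10.66 and 10.50 against 9.83 and 9.47 with it. It was higher in the resistant line in both states, by 0.48 ± 0.14 (adjusted p = 0.0197) and 0.93 ± 0.14 (adjusted p = 0.000233). The first of these calls was lost without the U266/LR7 inhibitor array (0.32), the U266/s control array (0.58) or the U266/s inhibitor array (0.39), with adjusted p between 0.0564 and 0.208. SLC7A7 had dim signals in both lines, under the lower quartile of genes on 6 of the 8 arrays. Its values were 5.74 and 5.60 against 6.22 and 5.998 without melphalan (-0.44 ± 0.13, adjusted p = 0.0219), and 5.57 and 5.51 against 5.66 and 5.68 with it (adjusted p = 0.433). The SLC7A7 call was lost without the U266/LR7 control (-0.47), U266/LR7 inhibitor (-0.40) or U266/s control array (-0.36), with adjusted p between 0.065 and 0.143, and under quantile (-0.32) or cyclic loess (-0.37) scaling.

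The sodium-coupled carriers held the widest gap of the 10 genes. SLC38A5 had signals of 5.82, 5.78, 5.52 and 5.72 on the U266/LR7 arrays, in the order control, melphalan, inhibitors and both, and 10.79, 9.73, 10.95 and 10.47 on the U266/s arrays. It was lower in U266/LR7 by 5.20 ± 0.21 log2 units without melphalan (adjusted p = 1.23e-08) and by 4.35 ± 0.21 with it (adjusted p = 1.10e-07). On 3 of the 4 U266/LR7 arrays it lay under the lower quartile of genes, so the size of the gap is limited by the dim end of the scale. SLC38A2 had 9.64 and 9.73 against 11.94 and 11.91 without melphalan, and 9.87 and 9.96 against 11.28 and 11.24 with it. The lower level in U266/LR7 amounted to 2.23 ± 0.12 log2 units (adjusted p = 1.05e-07) and 1.35 ± 0.12 (adjusted p = 5.52e-06). SLC38A1 was called in neither state. Its signals were 12.33 and 12.67 against 12.60 and 12.54 without melphalan and 12.39 and 12.36 against 12.25 and 12.17 with it (adjusted p = 0.706 and 0.246). The glutamine exchanger SLC1A5 had 10.31 and 10.66 against 11.60 and 11.72 without melphalan, and U266/LR7 was lower by 1.18 ± 0.12 (adjusted p = 1.41e-05). With melphalan its signals of 11.05 and 11.22 overlapped the 10.96 and 11.15 of U266/s, and the difference was 0.08 ± 0.12 (adjusted p = 0.586). The second, dimmer cluster of SLC1A5 gave -0.77 without and -0.19 with melphalan. With the mean of both clusters the limma differences were -0.97 (adjusted p = 0.000337) and -0.05 (adjusted p = 0.778).

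With melphalan, 4 members were higher in U266/LR7 (SLC7A8, SLC7A6, SLC3A2 and SLC43A1) and 3 lower (SLC7A5, SLC38A2 and SLC38A5), where 51.7% of all genes were called (27.7% higher and 24% lower). Among the 9208 genes above the median signal, 46.2% were higher and 21.2% lower. The members' median difference was 0.12, against -0.08 over all genes, and it was 0.06, 0.04 and 0.01 under median centring, quantile normalization and cyclic loess. With 1 array left out at a time, between 5 and 7 members were called in this state and between 5 and 8 without melphalan, with 5 called without the U266/s control array.

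**Figure D1:**
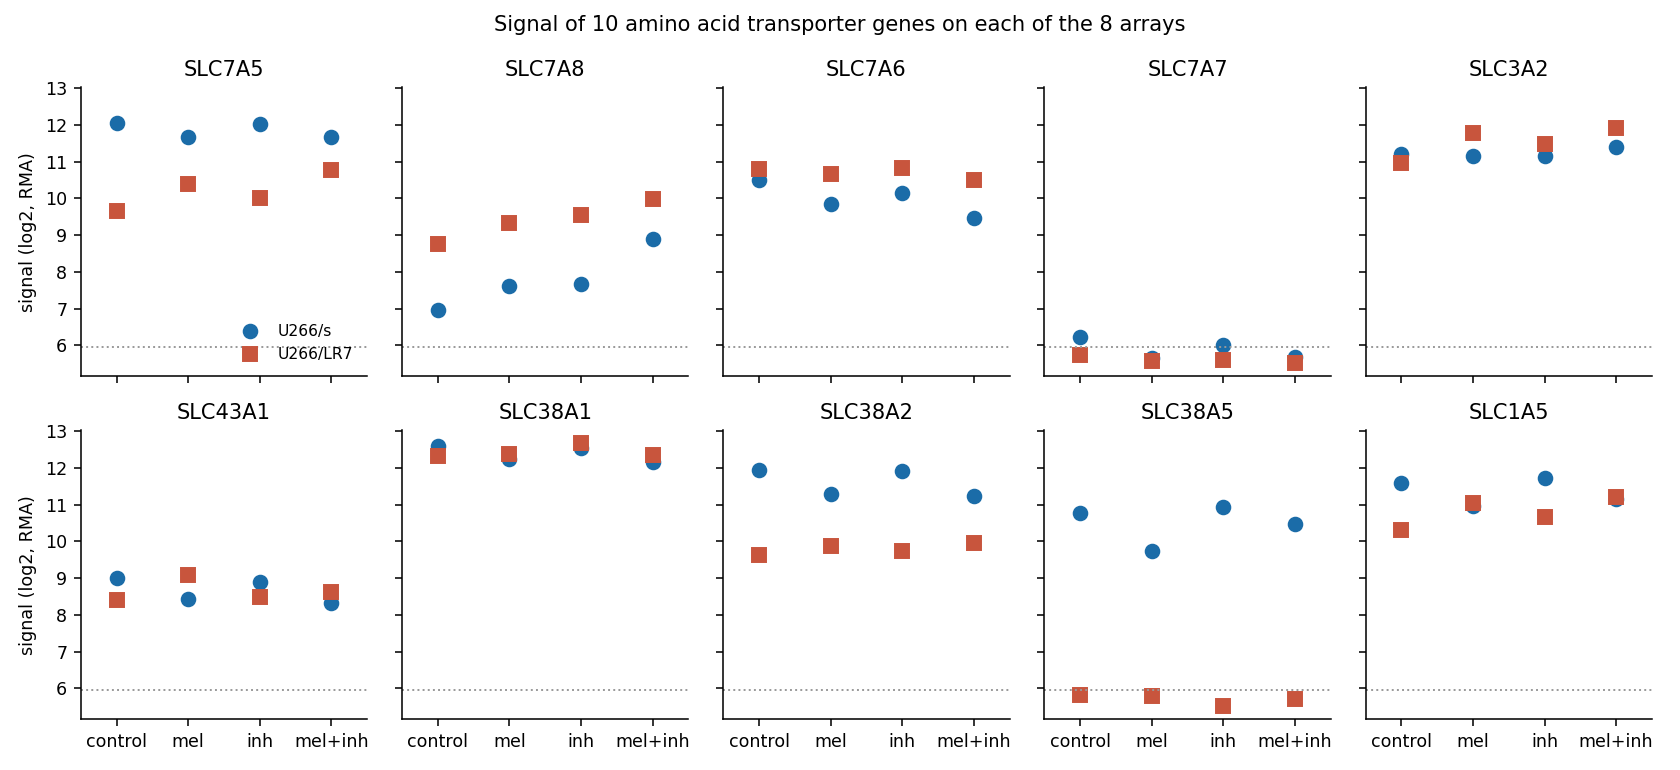
Log2 signal of each of the 10 transporter genes on each of the 8 arrays, 1 point per array, with the resistant line and the parent in separate colours and the treatments along the horizontal axis. SLC7A5, SLC38A2 and SLC38A5 sit lower in U266/LR7 under every treatment and SLC7A8 sits higher, whereas SLC38A1 lies between 12.17 and 12.67 throughout. Heights of different genes are not comparable.

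**Figure D2:**
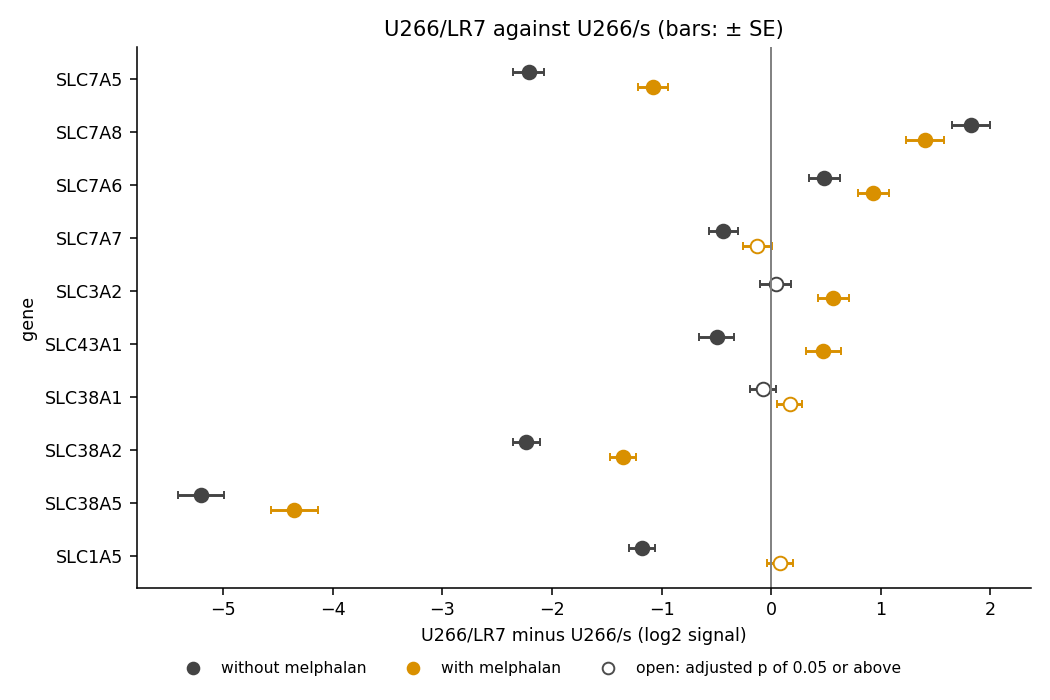
Difference between the lines (U266/LR7 minus U266/s, log2 units, 2 arrays against 2) for each of the 10 genes without and with melphalan; bars are SE of the fit and open points were not called. The SLC7A5 difference lies at -2.21 without and -1.08 with melphalan, and SLC1A5 moves from -1.18 to 0.08. A second SLC1A5 cluster, not shown, read -0.77 without and -0.19 with melphalan.

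With melphalan, SLC7A5 and SLC1A5 were called in opposite directions in parent and resistant line, but neither fall in the parent was firm. That of SLC7A5 was not called under median centring (-0.31), quantile normalization (-0.27) or cyclic loess (-0.11). That of SLC1A5 was absent from its second transcript cluster (0.17). In the parental line melphalan lowered 8 of the 10 and raised 1, SLC7A8, at a background of 43.4% of all genes called (18.4% higher and 24.9% lower). In the resistant line it raised SLC7A5, SLC3A2 and SLC1A5 and lowered none, at a background of 6.62% (3.02% higher and 3.61% lower). The members' median response was -0.50 in U266/s and 0.31 in U266/LR7, against 0.08 and 0.05 over all genes, and after quantile normalization it was -0.33 and 0.28. Tested directly, the response was more positive in U266/LR7 than in U266/s for SLC7A5, SLC43A1, SLC38A2 and SLC1A5 and more negative for none, at a background of 23.9% (17.9% more positive and 5.99% more negative). Among the 9208 genes above the median signal, to which 9 members belong, the shares were 31.8% and 8.59%. The members' direction was thus also the common one among bright genes. The split over all genes depends on the scaling: 74.9% of the called genes were more positive as deposited, 63.4% after median centring, 55.1% after quantile normalization and 61.1% after cyclic loess. The share of higher genes among those called was 42.5% in U266/s and 45.6% in U266/LR7 as deposited, and under those 3 scalings it was 51.3%, 53.4% and 43.0% in U266/s and 36.3%, 35.8% and 30.6% in U266/LR7.

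SLC7A5 was one of 2 members called in both lines, with opposite signs. In U266/LR7 melphalan added 0.75 log2 units without the inhibitors and 0.76 with them, whereas in U266/s the same comparisons gave -0.39 and -0.36. The rise in U266/LR7 was 0.76 ± 0.14, or 1.69-fold (adjusted p = 0.00871), and the difference between the responses was 1.14 ± 0.20 (adjusted p = 0.00172). The fall in U266/s, -0.38 ± 0.14 (adjusted p = 0.0466), lay close to the threshold. It was not called with 3 transfection levels (-0.37) or without the intensity trend (-0.38), under median centring (-0.31), quantile normalization (-0.27) or cyclic loess (-0.11), nor without any 1 of the 4 U266/s arrays or of the U266/LR7 arrays with melphalan (-0.51 to -0.24, adjusted p between 0.0602 and 0.396). The rise was lost without the U266/LR7 array of the combined treatment (0.63, adjusted p = 0.15). The difference between the lines was called under all 17 alternatives that could be run for it.

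Its heavy chain SLC3A2 also rose in U266/LR7, by 0.63 ± 0.14 (adjusted p = 0.0226). The single-array differences were 0.83 without and 0.43 with the inhibitors, and the inhibitor array stood 0.52 above the control array. In U266/s they were -0.06 and 0.26, with a fitted response of 0.10 ± 0.14 (adjusted p = 0.567). The test of the difference, 0.53 ± 0.20, missed the threshold (adjusted p = 0.0773), and passed it without the U266/LR7 inhibitor array (0.73, adjusted p = 0.0104). The rise itself was lost with 3 transfection levels (0.61, adjusted p = 0.0614), and without the U266/LR7 control (0.43), melphalan (0.57) or combined treatment array (0.69), with adjusted p between 0.0925 and 0.227. SLC7A8 was the member that rose in the parental line, by 0.64 and 1.21 in single arrays and by 0.93 ± 0.17 in the fit (adjusted p = 0.00129). In U266/LR7 its response was 0.51 ± 0.17 (adjusted p = 0.117), and the difference between the responses was -0.42 (adjusted p = 0.247). SLC43A1 fell in U266/s by 0.57 ± 0.16 (adjusted p = 0.0139), with -0.56 and -0.58 in single arrays. In U266/LR7 the arrays gave 0.67 and 0.14, a fitted 0.40 ± 0.16 that was not called (adjusted p = 0.177). Its responses differed by 0.97 ± 0.23 (adjusted p = 0.00897), a call lost without the U266/LR7 melphalan array (0.77, adjusted p = 0.0894) and under quantile normalization (0.63, adjusted p = 0.0614). The fall in U266/s was lost without each of the 4 U266/s arrays (-0.60 to -0.53, adjusted p between 0.0569 and 0.0847) and under quantile (-0.26) or cyclic loess (-0.36) scaling.

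Both y+L exchangers fell in U266/s. SLC7A6 gave -0.67 in both single-array comparisons and -0.67 ± 0.14 in the fit (adjusted p = 0.00283), against -0.22 in U266/LR7 (adjusted p = 0.451). Its call was lost without the U266/s control array (-0.57, adjusted p = 0.0645) and under cyclic loess (-0.38, adjusted p = 0.0537). SLC7A7 gave -0.56 and -0.31 in single arrays and -0.44 ± 0.13 in the fit (adjusted p = 0.0197), against -0.13 in U266/LR7 (adjusted p = 0.691). It lost the call without the U266/s control (-0.36) or melphalan array (-0.35) or with 3 transfection levels (-0.35), with adjusted p of 0.148, 0.14 and 0.15. For neither gene was the difference between the lines called, at 0.45 (adjusted p = 0.133) and 0.31 (adjusted p = 0.258), although SLC7A6 passed without the U266/LR7 inhibitor array (0.62, adjusted p = 0.0306).

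All 4 sodium-coupled and glutamine carriers fell in U266/s. SLC38A2, which amino acid shortage is known to induce, gave -0.66 in both single-array comparisons of U266/s (-0.66 ± 0.12, adjusted p = 0.00116) and 0.22 in both of U266/LR7 (0.22 ± 0.12, adjusted p = 0.357). The responses differed by 0.88 ± 0.17 (adjusted p = 0.00348), and this was called under all 17 alternatives. SLC1A5 gave -0.64 and -0.57 in U266/s (-0.61 ± 0.12, adjusted p = 0.00175) and 0.74 and 0.56 in U266/LR7 (0.65 ± 0.12, adjusted p = 0.00909). It had the largest difference between the responses among the 10 members, 1.26 ± 0.17 (adjusted p = 0.000471), and was likewise called under all 17 alternatives. The rise in U266/LR7 was lost without the U266/LR7 melphalan array (0.62, adjusted p = 0.129) or the array of the combined treatment (0.68, adjusted p = 0.0963). A second, dimmer transcript cluster of SLC1A5 did not follow in the parent. It read 7.37, 7.77, 7.75 and 7.69 in U266/s and 6.50, 7.51, 7.09 and 7.57 in U266/LR7, in the order control, melphalan, inhibitors and both. Its responses were 0.17 and 0.75, and with the mean of both clusters the U266/s fall was -0.22 (adjusted p = 0.253) whereas the difference between the lines stayed called (0.92, adjusted p = 0.00888).

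SLC38A5 fell in U266/s by 0.77 ± 0.21 (adjusted p = 0.0128), with -1.06 without the inhibitors and -0.49 with them. In U266/LR7, where its signal was near the dim end, the response was 0.08 (adjusted p = 0.901), and the difference of 0.85 ± 0.30 missed the threshold (adjusted p = 0.0622). It passed without the U266/LR7 control array (1.14, adjusted p = 0.016) or the U266/s array of the combined treatment (1.25, adjusted p = 0.00775), and, at 0.85, with 3 transfection levels (adjusted p = 0.038), with all interactions of 2 factors (adjusted p = 0.0199) and among the genes above the median signal alone (adjusted p = 0.0397). The fall was lost with 3 transfection levels (-0.57, adjusted p = 0.0909), without the U266/s control (-0.79), melphalan (-0.37) or inhibitor array (-0.75), with adjusted p between 0.0703 and 0.203, and under quantile normalization (-0.50, adjusted p = 0.0696). SLC38A1 gave -0.36 and -0.37 in U266/s (-0.36 ± 0.12, adjusted p = 0.0272) and 0.06 and -0.31 in U266/LR7 (adjusted p = 0.662). Its difference between the lines was 0.24 (adjusted p = 0.328), or 0.44 without the U266/LR7 inhibitor array (adjusted p = 0.0401). The fall was lost without each of the 4 U266/s arrays (-0.44 to -0.29, adjusted p between 0.0553 and 0.238), without the intensity trend (-0.36, adjusted p = 0.0661) and under quantile (-0.28) or cyclic loess (-0.20) scaling.

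The count of members that changed in U266/s therefore rested on single arrays and on the scaling. It was 9 as deposited, 3 without the U266/s control array, 4 without the U266/s melphalan array, 5 without the U266/s inhibitor array, and 5 under either quantile normalization or cyclic loess. SLC7A8, SLC7A7, SLC38A2 and SLC1A5 passed under both scalings. Among the 9208 genes above the median signal, to which 9 of the members belong, 3714 fell in U266/s and 1859 rose. The narrower signal range of the U266/s melphalan arrays moved with these falls, and its part in them was not tested. Myeloid marker genes also moved with melphalan. In U266/s CD14 rose by 1.47 and MPO by 1.20, 2 of 5 in all, where 18.4% of all genes rose. In U266/LR7 CD14 rose by 0.55, 1 of 5, where 3.02% of all genes rose. The summed log2 signal of these 5 ran from 29.16 to 32.93 in U266/s and from 28.26 to 29.42 in U266/LR7. Averaged over all arrays of a line, with and without melphalan, none of them lay above the median gene. On the U266/s melphalan and combined treatment arrays alone, CD14 read 7.77 and 7.94, against array medians of 7.31 and 7.32. MPO read 7.45 and 6.94 on those arrays. Of 9 plasma cell markers, 5 fell and 1 rose in U266/s, at 24.9% and 18.4% of all genes, and 2 fell in U266/LR7, at 3.61%. Their summed signals ran from 90.06 to 94.95 over the U266/s arrays and from 94.83 to 97.94 over those of U266/LR7. In U266/LR7, the 3 rises became 1 without the melphalan array and 0 without the array of the combined treatment. The part of these genes and arrays in the transporter results was not tested.

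**Figure D3:**
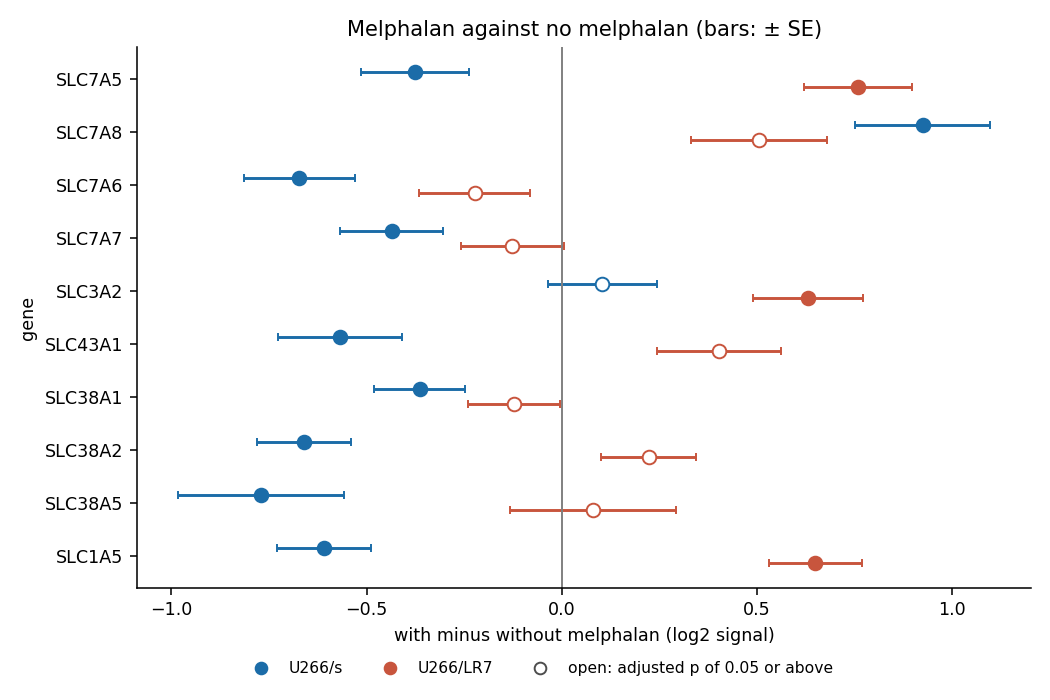
Response of each of the 10 genes to melphalan (log2 units, 2 arrays against 2) in U266/s and in U266/LR7; bars are SE of the fit and open points were not called. SLC7A5 and SLC1A5 lie below 0 in U266/s (-0.38 and -0.61) and above 0 in U266/LR7 (0.76 and 0.65), and SLC7A8 lies above 0 in both. The SLC7A5 fall in U266/s was -0.11 and not called under cyclic loess. A second SLC1A5 cluster, not shown, read 0.17 in U266/s.

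The 4 members whose responses differed between the lines have the promoter sequences below, which are shown because these are the genes on which that comparison turns. Each is the 250 bases before the outermost RefSeq start (GRCh38.p14), written 5′ to 3′ on the gene's strand. Capitals mark CACGTG, the E-box bound by MYC and other basic helix-loop-helix factors.
SLC7A5 (chr16:87869508-87869757, minus strand): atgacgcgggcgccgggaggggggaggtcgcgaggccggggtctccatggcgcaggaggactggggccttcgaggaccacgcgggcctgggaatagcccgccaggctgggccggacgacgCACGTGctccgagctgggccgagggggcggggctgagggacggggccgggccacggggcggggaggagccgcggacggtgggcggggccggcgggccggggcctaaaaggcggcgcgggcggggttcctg
SLC43A1 (chr11:57515703-57515952, minus strand): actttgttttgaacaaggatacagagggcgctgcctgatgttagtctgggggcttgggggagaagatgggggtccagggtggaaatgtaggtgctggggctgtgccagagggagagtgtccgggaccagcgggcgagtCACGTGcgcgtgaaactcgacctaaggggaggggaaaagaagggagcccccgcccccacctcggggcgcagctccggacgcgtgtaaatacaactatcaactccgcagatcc
SLC38A2 (chr12:46372774-46373023, minus strand): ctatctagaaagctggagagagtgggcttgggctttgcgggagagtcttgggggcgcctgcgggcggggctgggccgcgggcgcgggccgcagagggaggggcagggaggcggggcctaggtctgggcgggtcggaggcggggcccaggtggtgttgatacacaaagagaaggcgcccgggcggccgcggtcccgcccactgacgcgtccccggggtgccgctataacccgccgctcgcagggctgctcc
SLC1A5 (chr19:46788595-46788844, minus strand): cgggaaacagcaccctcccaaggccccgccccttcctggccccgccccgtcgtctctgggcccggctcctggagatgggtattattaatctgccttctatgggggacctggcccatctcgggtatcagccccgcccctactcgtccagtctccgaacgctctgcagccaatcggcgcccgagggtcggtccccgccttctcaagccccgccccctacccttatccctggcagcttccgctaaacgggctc
Between the motif and the start lay 124 bases in SLC7A5 and 106 in SLC43A1, and the motif was also found in SLC38A5. That is 3 of 10 members, and 6.46% of the 27305 promoter windows of the same length held it. On either strand, none of the 10 held TGATGNAA (the core of the C/EBP-ATF composite element, 3.19% of all windows), TGACTCA (AP-1, 4.15%) or TGACGTCA (the cyclic AMP response element, 1.75%). A match is a description of these letters and not evidence of binding. Only the 250 bases before the outermost start were searched, so a missing match says nothing of other starts or the rest of the gene.

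The inhibitors of miR-221 and miR-222 left most of the transporters within the spread of the model. SLC7A8 was the exception, with more signal in 4 of 4 matched pairs, and it was 1 of only 8 genes called of 18417 (0.0434%, 5 of them higher, or 0.0271%), a count that ran from 0 to 20 under the alternatives. Its pairs gave 0.71 without and 1.28 with melphalan in U266/s, and 0.79 and 0.64 in U266/LR7. The fitted rise was 0.85 ± 0.12, or 1.81-fold (adjusted p = 0.0496). The pairs did not straddle 0 in either line, but the adjusted p sat at the threshold. It was lost without each of the 8 arrays in turn (0.71 to 0.93, adjusted p between 0.0594 and 0.174), under quantile normalization (0.86, adjusted p = 0.093) and under cyclic loess (0.85, adjusted p = 0.0851). It was also lost when the untransfected label of the melphalan-alone arrays was taken at its word (0.75, adjusted p = 0.245). SLC1A5 was higher in 4 of 4 pairs by 0.12 to 0.35 but was not called (0.21 ± 0.08, adjusted p = 0.738). SLC7A5 read 0.35 and 0.36 in U266/LR7 and -0.03 and 0.00 in U266/s (0.17 ± 0.10, adjusted p = 0.856). SLC3A2 differed by 0.52 without and 0.12 with melphalan in U266/LR7 and by -0.05 and 0.27 in U266/s (adjusted p = 0.789). Limma called 0 members, and 0 genes of 18417 (0%), for a difference between the inhibitor effects of the lines, with 1 member and 1006 genes at an unadjusted p under 0.05. That member was SLC38A5, at -0.64 (adjusted p = 0.886).

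Other amino acid carriers and the pathways that sense amino acid supply were read beside the 10 genes, in 3 lists that share 1 gene, SLC7A11. Of 30 further amino acid transporters measured, 1 was higher and 6 lower in U266/LR7 without melphalan, where 34.7% of all genes were called, with a median of -0.10 against -0.04 over all genes. The higher one was SLC38A6 (1.01), named here after its value was seen. SLC7A2, which carries cationic amino acids, was lower by 4.22, the neutral amino acid carrier SLC6A15 by 3.69, the aromatic amino acid carrier SLC16A10 by 3.07 and the system L carrier SLC43A2 by 1.26. SLC7A2, SLC6A15 and SLC16A10 were dim in U266/LR7, at 4.65 to 4.92, 4.54 to 5.06 and 5.64 to 6.04. With melphalan, 6 were higher and 6 lower in U266/LR7, at 51.7% of all genes. Melphalan raised 2 and lowered 9 of the 30 in U266/s, at 18.4% and 24.9% of all genes. The lowered ones included SLC16A10 (-2.41), SLC6A15 (-2.18), SLC7A2 (-1.78) and the lysosomal carrier SLC38A9 (-1.51). It raised 1, the glycine transporter SLC6A9 (0.59), and lowered 0 in U266/LR7, at 6.62% of all genes. Responses differed for 6, all more positive in U266/LR7, at 23.9% of all genes. SLC38A9, SLC43A2 (0.90) and SLC6A9 (0.65) were the ones among them that were not dim in U266/LR7. Signals of SLC38A9 stayed between 9.71 and 9.998 in U266/LR7 but were 10.11 and 9.84 without and 8.35 and 8.58 with melphalan in U266/s, a difference of 1.33 ± 0.22 between the responses.

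Genes of the amino acid response, which ATF4 drives when amino acids are short, moved in both lines. In U266/s melphalan raised 7 of 25 and lowered 7, at 18.4% and 24.9% of all genes. The median was 0.23 against 0.08 over all genes, and 0.42 and 0.43 under quantile normalization and cyclic loess. The stress transcription factors ATF3 and DDIT3 rose by 1.48 and 1.41 and the glutathione-degrading enzyme gene CHAC1 by 1.21, while the mitochondrial folate enzyme gene ALDH1L2 fell by 1.10. In U266/LR7 it raised 6 of 25 and lowered 0, at 3.02% and 3.61% of all genes, with a median of 0.23 against 0.05. STC2, a secreted glycoprotein, rose by 0.83, PCK2, mitochondrial phosphoenolpyruvate carboxykinase, by 0.80, ATF3 by 0.73 and asparagine synthetase, ASNS, by 0.63. ASNS signals in U266/LR7 were 9.20 and 9.44 without and 9.98 and 9.93 with melphalan. The lines differed in response for 7 of 25, at 23.9% of all genes, with ALDH1L2 (1.56) and the serine hydroxymethyltransferase SHMT2 (0.76) more positive in U266/LR7 and DDIT3 (-1.18) and ATF3 (-0.76) more negative. Those splits moved with the scaling. In U266/s the 7 higher and 7 lower became 9 and 7, 12 and 4, and 12 and 3 under median centring, quantile normalization and cyclic loess, and for the difference the 4 and 3 became 4 and 5, 3 and 6, and 2 and 6. Between the lines, 7 were higher and 5 lower in U266/LR7 without melphalan, where 34.7% of all genes were called. With melphalan 8 were higher and 5 lower, where 51.7% of all genes were called. Under quantile normalization and cyclic loess the split with melphalan was 4 and 9, and 4 and 8.

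Genes for amino acid sensing by mTORC1, the kinase complex that couples amino acid supply to growth, changed in both directions in the parent. Of 27 measured, melphalan raised 3 and lowered 11 in U266/s, at 18.4% and 24.9% of all genes. The median of -0.29, against 0.08 over all genes, became 0.03 under quantile normalization and -0.08 under cyclic loess. FNIP1, a folliculin partner, fell by 1.61, MIOS and SEH1L, subunits of the GATOR2 complex, by 1.51 and 1.38, and SESN3, a sestrin, by 1.43. In U266/LR7, 1 rose (NPRL2, 0.63) and 1 fell (RPTOR, -0.76), at 6.62% of all genes. Responses were more positive in U266/LR7 for 9 and more negative for 1, at 17.9% and 5.99% of all genes. Under quantile normalization and cyclic loess the U266/s split was 6 and 10, and 7 and 10, and that of the difference 5 and 4, and 5 and 2. Without melphalan 8 were higher in U266/LR7 and 5 lower, at 16.9% and 17.8% of all genes. SESN3 stood at -2.65, RRAGB at 1.28, FNIP2 at 1.24 and RRAGD at 0.95. With melphalan 15 were higher and 3 lower, at 27.7% and 24% of all genes, or 11 and 8 under either of those scalings. For the inhibitors limma called 0 genes of these 3 lists, and at an unadjusted p under 0.05 there were 1, 6 and 3 in the order given here for the effect over both lines.

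**Figure D4:**
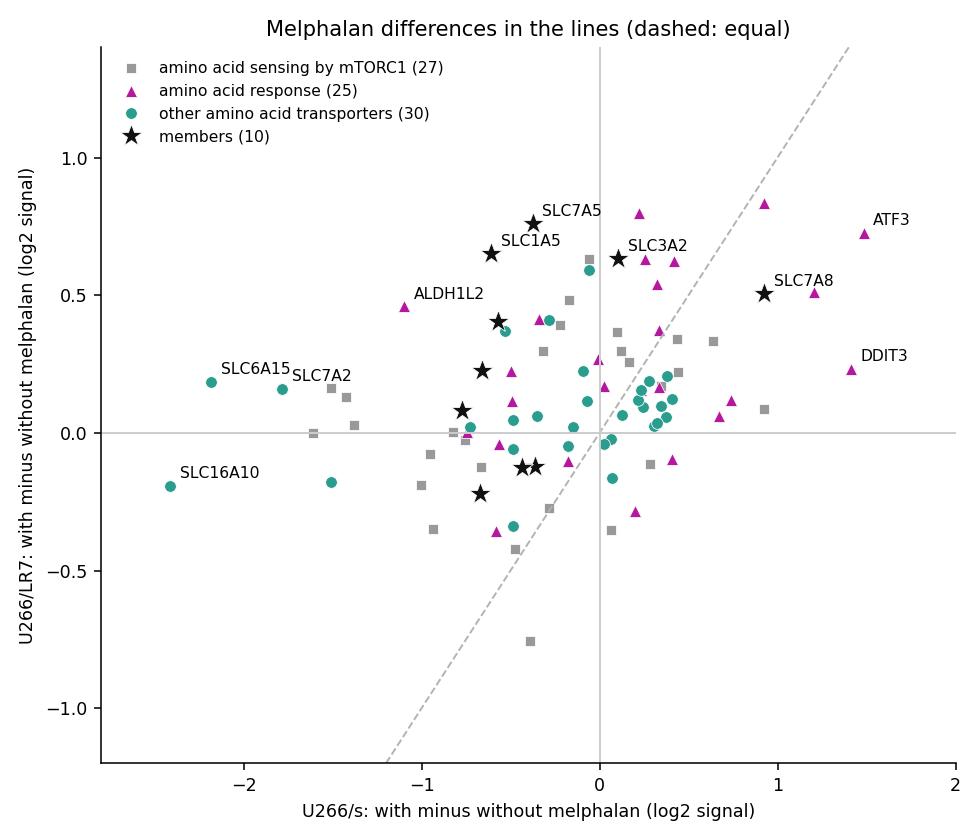
Response to melphalan in U266/s (horizontal axis) and in U266/LR7 (vertical axis), both in log2 units, with 1 point per gene for the 10 transporters and the 3 further lists. Of the 10 transporters 8 lie left of 0, and the highest in U266/LR7 is SLC7A5 at 0.76. The dashed line marks equal responses, and the responses of the lines share no array.

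Over the 8 arrays and 9208 genes above the median signal, the genes whose pattern was most like that of SLC7A5 were HDGF (Pearson r = 0.990), R3HCC1 (0.985) and COX18 (0.983). For SLC3A2 they were DHRS13 (0.962), MRPL49 (0.949) and ZNF264 (0.941). These are descriptions over arrays that share 2 lines, and they carry no test. The near-identical copies of SLC7A5 were not analysed here as genes of their own, and signal from their transcripts at the SLC7A5 probes cannot be told apart from it.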

How the data were processed

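RNA of 8 samples was measured on 1 Affymetrix array each. The authors deposited log2 signals from Affymetrix Expression Console, per the submitters' processing notes, which name RMA, a method that corrects background, equalises the arrays' distributions and summarises probes. No version is given in the sources used here. Of 33297 transcript clusters, 19460 have 1 platform symbol, 1754 several and 12083 none listed, and 19429 were matched to RefSeq by gene ID. The brightest cluster on average stood for each of the 769 genes with several, which left 18417 genes. Columns that belong to no sample: 0.

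Limma 3.58.1 (R 4.3.3) was fitted over all 8 arrays with line, melphalan, their interaction and the inhibitors (3 residual degrees of freedom), with variances that follow intensity and Benjamini-Hochberg adjustment over all genes. The residual holds the interactions left out. The interaction of line and inhibitors was tested in a fit with that term added. The script was tested on simulated data. All 10 members are named. Of each further list, at most 4 genes with the largest called folds are named for a contrast, and of likeness the top 3. The other amino acid transporters depart from this. SLC38A6 was named beyond those, and for the difference between the responses the genes not dim in U266/LR7 were named instead. Members and lists were chosen with earlier results of these data known. The number of arrays limits the precision. Alternatives were other models, scalings and filters, and each array left out.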

Additional observations from a re-analysis of the deposited data

Results flagged for a closer look

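The response to melphalan differed between U266/LR7 and U266/s, by the interaction term in limma, for 4 of the 10 transporters. The differences (U266/LR7 minus U266/s, log2 units) were 1.14 for SLC7A5, 0.97 for SLC43A1, 0.88 for SLC38A2 and 1.26 for SLC1A5, with adjusted p between 0.000471 and 0.00897. In each of them both U266/LR7 arrays with melphalan stood above their matched arrays without it and both U266/s arrays stood below theirs. For SLC1A5 this holds for the brighter transcript cluster, and the second gave a U266/s response of 0.17. The SLC43A1 call was lost under quantile normalization (0.63, adjusted p = 0.0614) and without the U266/LR7 melphalan array (0.77). Those of SLC7A5, SLC38A2 and SLC1A5 held under all 17 alternatives. Over all genes, 23.9% had such a difference. Among the 9208 genes above the median signal, 31.8% were more positive in U266/LR7 and 8.59% more negative.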

How the results depend on the processing

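Over the 10 genes and 7 contrasts, 1134 recomputed values kept their side of the threshold, 88 lost a call, 8 gained one and 3 reversed. Of those 1134, 34 were uncalled values whose sign turned. The reversals came from the model without the interaction, which by construction averages a line difference over the melphalan states and a melphalan response over the lines: SLC43A1 between the lines with melphalan (-0.0084), and SLC7A5 (0.19) and SLC1A5 (0.0204) for melphalan in U266/s. That model called 5 members in place of 8 for the lines without melphalan, and 0 in place of 9 (U266/s), 3 (U266/LR7) and 1 (inhibitors). Quantile normalization and cyclic loess each left 5 members for melphalan in U266/s and 0 for the inhibitors, and 3 transfection levels also left 0 there. With each array left out in turn, members called ranged from 5 to 8 for the lines without melphalan, 5 to 7 with it, 3 to 9 for melphalan in U266/s, 0 to 3 in U266/LR7, 3 to 7 for the difference (7 without the U266/LR7 inhibitor array) and 0 to 0 for the inhibitors. Over all genes, calls for melphalan in U266/s were 7984, but 838 without the interaction and 4258 without the U266/s control array. In U266/LR7 they were 1220, but 679 with 3 transfection levels, and 306 and 250 without, in turn, the U266/LR7 melphalan and combined treatment arrays. For the difference they were 4394, but 2552 and 2443 without, in turn, the U266/LR7 melphalan and the U266/s control array, and for the lines with melphalan 9529, but 6172 without the interaction and 6152 without the U266/LR7 melphalan array. Inhibitor calls were 8, 5 of them higher, and 12 after median centring, 5 of them higher. No scaling moved the median of all genes by over 0.1, but the median does not show the narrower signal range of the U266/s arrays with melphalan. The counts of calls did move with the scaling. No paired analysis was possible because each condition has 1 array and the replicate number therefore pairs nothing beyond the design.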
